A study of Mus musculus with 26 samples.

Results

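Imprinted genes were followed on 26 Affymetrix arrays of mouse cells that differ in the Prdm14 gene, in growth medium or in developmental stage. A list of 45 imprinted genes in 19 clusters was chosen by name, and each gene was read from the probe set with 1 gene symbol that had the highest mean over the arrays. Of these, 43 were measured among 18193 genes in all. H19, the noncoding RNA beside Igf2, was annotated only on a probe set shared by several genes, and Zrsr1, a retrogene within Commd1, had no named probe set. Among the 43, 23 are known as paternally expressed, 17 as maternally expressed and 3 as mixed or tissue-dependent. Of the 43, 8 had a mean signal under 4.89, that of the median probe set, and are called dim.

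All cells were C57BL/6 and male, and were kept on embryonic fibroblast feeders. The arrays labelled AGP14 came from ES cell-like Prdm14 knockout cells with a transgene that expresses Avitag-EGFP-tagged Prdm14 from the CAG promoter, in 2i, serum and serum without LIF. The arrays labelled KO came from ES cell-like Prdm14 knockout cells, and those labelled WT from ES cells with no genetic modification, both in those media and in serum with a MEK inhibitor. EpiLC arrays were of epiblast-like cells at day 2 and day 3, from a line with the Blimp1-mVenus and Stella-ECFP reporters and therefore not from the line of the WT arrays. The mean of 27 feeder fibroblast genes was lowest in EpiLC arrays, at 5.37 at day 2 and 5.62 at day 3. Whether feeders were present when they were harvested was not tested. The 2i medium held N2B27, 0.4 uM PD0325901 (a MEK inhibitor), 3 uM CHIR99021 (a GSK3 inhibitor) and 1000 units per ml of LIF. Serum groups spent 2 days in GMEM with LIF and 20% serum. The noLIF groups had no LIF in it, and the MEKi groups had 0.4 uM PD0325901 added. The 13 groups hold 2 arrays each, numbered 1 and 2. The labels do not say whether a number marks a line or culture, so p-values measure the spread between arrays, which may be technical.

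Imprinted genes are expressed from the copy inherited from 1 parent. For most of them, though not all, the choice of allele is set by DNA methylation placed in the egg or sperm at imprinting control regions. It is kept after fertilisation by ZFP57, TRIM28 and DNMT1, and shared by the genes of a cluster. A gain or loss of that methylation moves the genes of a cluster in opposite directions where they are read from opposite alleles, and cultured stem cells are known for such losses. Arrays measure the RNA of both alleles together, and here neither allele nor methylation was measured.

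ZFP57 recognises the hexamer TGCCGC when its CG is methylated. Promoter windows are therefore shown for 6 members described below. Mcts2 and H13 differed between arrays of the same genotype, both within KO and within WT arrays. Mest and Nnat were low in AGP14 arrays, Slc38a4 was low in KO arrays, and Plagl1 followed the medium. The windows are 300 bases of RefSeq sequence of build GRCm38.p6 around a transcription start, and where a gene had several starts the window with the most CG pairs was taken. Capitals mark TGCCGC on either strand, which reads GCGGCA when it lies on the other strand.
Mcts2: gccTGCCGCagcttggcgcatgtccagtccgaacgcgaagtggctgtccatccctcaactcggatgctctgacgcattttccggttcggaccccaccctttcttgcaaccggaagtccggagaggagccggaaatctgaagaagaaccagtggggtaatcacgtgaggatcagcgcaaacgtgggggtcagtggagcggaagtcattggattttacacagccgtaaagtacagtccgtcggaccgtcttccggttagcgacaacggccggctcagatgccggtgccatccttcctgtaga
H13: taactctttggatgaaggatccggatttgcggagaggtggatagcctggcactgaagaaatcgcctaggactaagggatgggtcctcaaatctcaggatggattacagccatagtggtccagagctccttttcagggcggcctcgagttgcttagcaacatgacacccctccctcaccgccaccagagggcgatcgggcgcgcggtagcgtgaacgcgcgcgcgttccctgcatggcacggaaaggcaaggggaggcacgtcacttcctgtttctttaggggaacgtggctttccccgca
Mest: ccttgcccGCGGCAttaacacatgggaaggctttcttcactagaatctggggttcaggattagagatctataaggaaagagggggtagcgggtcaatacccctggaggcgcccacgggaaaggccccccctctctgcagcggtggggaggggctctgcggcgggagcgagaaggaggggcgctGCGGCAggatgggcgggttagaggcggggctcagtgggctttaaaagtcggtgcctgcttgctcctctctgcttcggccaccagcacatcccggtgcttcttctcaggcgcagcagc
Nnat: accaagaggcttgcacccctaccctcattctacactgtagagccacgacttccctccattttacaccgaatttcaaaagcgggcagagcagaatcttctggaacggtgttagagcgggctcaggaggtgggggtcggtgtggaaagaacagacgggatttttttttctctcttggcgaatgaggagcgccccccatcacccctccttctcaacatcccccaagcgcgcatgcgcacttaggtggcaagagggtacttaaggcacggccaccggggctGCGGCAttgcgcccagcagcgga
Slc38a4: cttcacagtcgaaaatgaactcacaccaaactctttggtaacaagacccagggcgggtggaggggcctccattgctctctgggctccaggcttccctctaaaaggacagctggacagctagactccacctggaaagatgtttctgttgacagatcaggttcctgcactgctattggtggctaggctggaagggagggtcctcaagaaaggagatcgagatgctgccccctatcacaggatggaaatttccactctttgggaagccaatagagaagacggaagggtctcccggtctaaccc
Plagl1: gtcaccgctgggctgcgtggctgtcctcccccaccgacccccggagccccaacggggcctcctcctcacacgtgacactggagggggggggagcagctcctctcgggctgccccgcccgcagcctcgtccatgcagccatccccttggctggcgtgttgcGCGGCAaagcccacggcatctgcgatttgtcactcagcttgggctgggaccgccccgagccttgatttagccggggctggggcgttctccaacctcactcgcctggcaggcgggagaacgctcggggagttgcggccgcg

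Mcts2 held 1 match in its window at chr2:152686898-152687197 on the plus strand, with 25 CG pairs, inside the span of H13. The H13 window at chr2:152669211-152669510, also on the plus strand, held 21 CG pairs and no match. Mest (chr6:30737800-30738099, plus strand) held 2 matches, and Nnat (chr2:157559828-157560127, plus strand) and Plagl1 (chr10:13090582-13090881, plus strand) held 1 each. Slc38a4 (chr15:97055907-97056206, minus strand) had 5 CG pairs and no match. The window of Igf2, not printed here, had 24 CG pairs and no match. Of 39 measured members with a promoter window, 12 (30.8%) held the hexamer, against 3301 of 27025 genes (12.2%). Among windows with 10 or more CG pairs it was 11 of 30 members (36.7%), against 2828 of 12388 genes (22.8%). A match is letters in a window, not a bound site, and the probe sets report transcripts whose start is not given.

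Values are the deposited log signals, read as log2. The base is not stated and was inferred from the range of the values. Each difference is on the log2 scale and has a standard error (SE). The test was limma on all genes at once, adjusted by Benjamini-Hochberg over 18193 genes. A gene is said to have risen or fallen, or is called, at an adjusted p under 0.05, and percentages of all genes called stand beside the counts of members. Levels are set only against the same gene's levels, since probe sets differ in their response.

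Facts of the whole series bear on several results. The Prdm14 probe set goes against the KO label in 2i, where it read 11.33 and 11.24 in KO arrays and 8.95 and 9.40 in WT arrays, and with MEKi, where it read 10.60 and 10.87 in KO arrays and 9.04 and 9.48 in WT arrays (KO minus WT 2.11 and 1.47, adjusted p = 0.00268 and 0.0491). Its mean in AGP14 arrays was 9.20 in 2i, 6.38 in serum and 4.99 in noLIF, against 9.18, 6.63 and 4.72 in WT arrays. The probe set therefore does not set the transgene arrays apart from WT arrays, and whether it matches the transgene is not given. The position of the deleted part is not given, so a probe outside it would check nothing, and genotype directions below rest on the labels. Labelling controls fall into 2 sets of arrays: lys read 13.41 to 13.53 in 12 arrays (all KO and WT arrays in 2i and MEKi, and all EpiLC arrays) and 6.93 to 7.49 in the other 14 (all serum, noLIF and AGP14 arrays). Where a comparison crosses these sets, the groups and the array sets cannot be told apart. The mean of 10 stem cell markers lay between 9.43 and 11.85 in the stem cell groups and at 9.47 and 9.05 in EpiLC at day 3 and day 2. The mean of 27 feeder fibroblast genes lay between 5.37 (EpiLC day 2) and 8.45 (WT in 2i).

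Of the 43 members, 40 (93%) were called in 1 or more of the comparisons, where 70.4% of all genes were. A range of 2 or more over the arrays was spanned by 26 members (60.5%) and by 35.8% of all genes. Nnat (neuronatin, a small membrane protein) had the widest range, 7.82, but its lowest value of 0.42 lies far under the median probe set, so this range and its rank are imprecise. Plagl1 (the zinc finger protein ZAC1), Slc38a4 (an amino acid transporter) and Igf2 (an embryonic growth factor) had ranges of 6.28, 6.15 and 5.83. Zim1, Airn and Dlk1 were called in no comparison. Airn, the antisense noncoding RNA of the Igf2r cluster, read 4.24 to 5.09, Dlk1, a Notch-like ligand, 3.73 to 5.52, and Zim1, a zinc finger gene, 2.32 to 4.02, so all 3 lay near or under the median probe set.

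**Figure D1:**
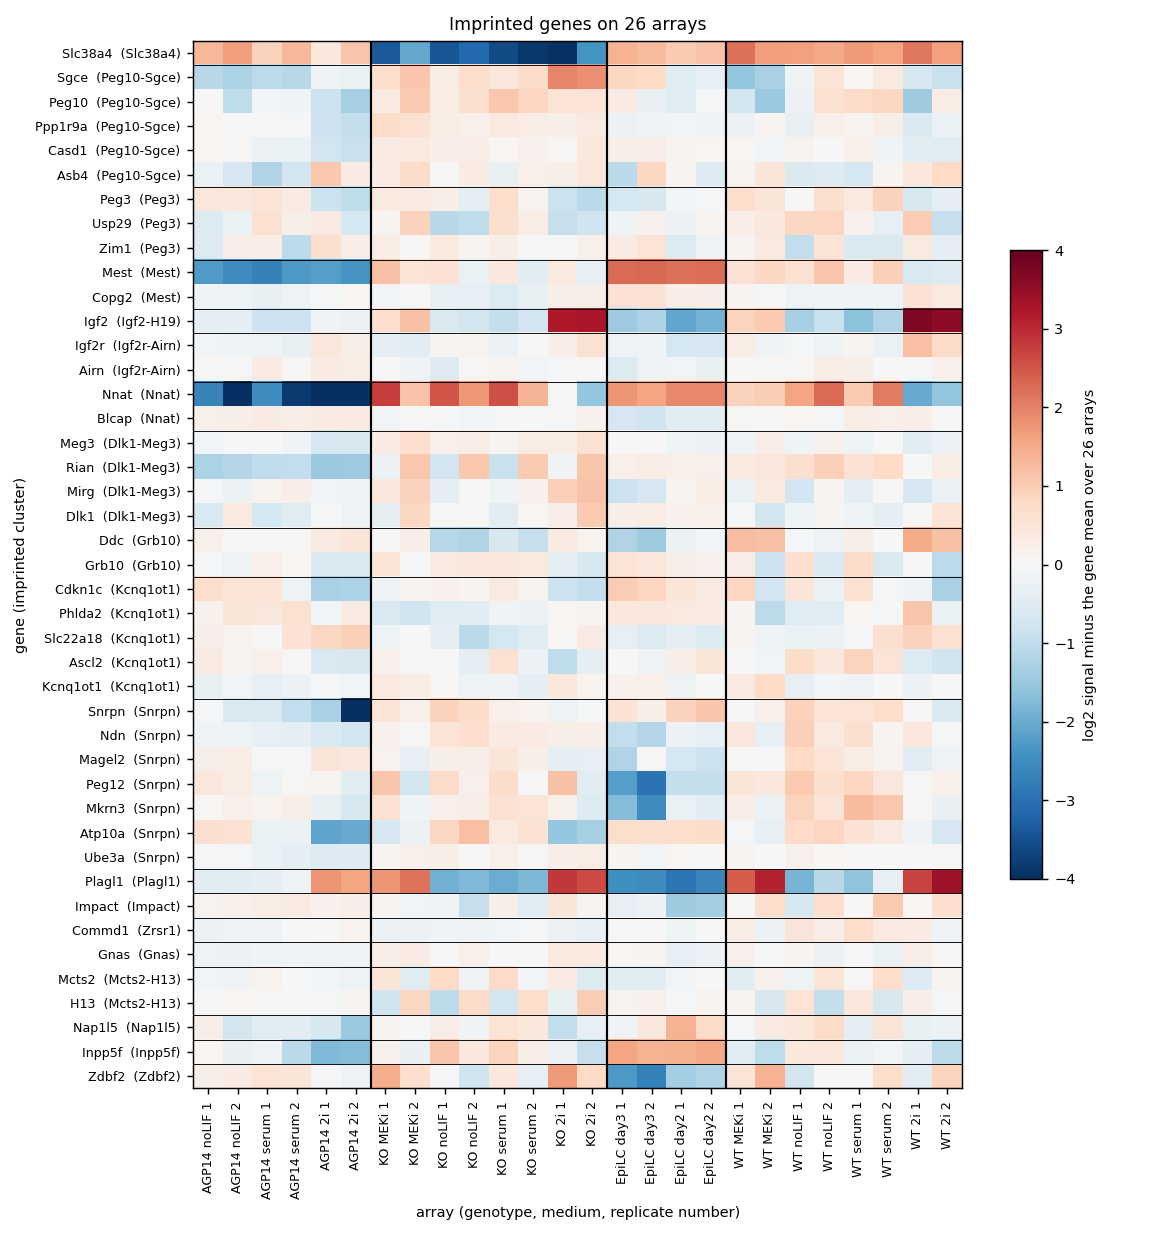
Each row is 1 of 43 imprinted genes with its cluster in brackets, each column 1 of 26 arrays, and the colour is the log2 signal minus the gene's mean over the arrays, with the colour scale ending at 4 in each direction. Slc38a4 is low in all 8 KO arrays, and Mest and Nnat are low in all 6 AGP14 arrays. Igf2 is highest in KO and WT arrays in 2i. Plagl1 is high in 2i arrays of AGP14, KO and WT and in MEKi arrays.

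Slc38a4 separated KO arrays from all others. This paternally expressed transporter gene read 4.17 and 5.72 in KO arrays in 2i, 4.56 and 4.25 in serum, 4.71 and 5.0 in noLIF and 4.76 and 6.09 in MEKi. WT arrays read 10.22 and 9.77 in 2i, 9.83 and 9.71 in serum, 9.77 and 9.63 in noLIF and 10.32 and 9.79 in MEKi. No KO array came near a WT array. KO minus WT was -5.05 in 2i, -5.36 in serum, -4.85 in noLIF and -4.63 in MEKi (SE 0.40 each, adjusted p = 2.57e-07, 5.09e-07, 1.61e-06 and 2.14e-06), and held in every alternative run. A further Slc38a4 probe set differed by -4.42, -4.68, -4.27 and -3.74. In AGP14 arrays the gene read 8.54 and 9.23 in 2i, 9.06 and 9.46 in serum and 9.46 and 9.81 in noLIF, which was 3.94, 4.85 and 4.78 above KO arrays (adjusted p = 1.66e-06, 9.94e-07 and 3.23e-07). AGP14 minus WT, at -1.11 in 2i, -0.51 in serum and -0.06 in noLIF on the same probe set, did not pass.

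Ddc (DOPA decarboxylase), whose cluster is that of Grb10, fell in KO arrays in all 4 media. It read 8.27 and 8.07 in KO arrays in 2i, against 9.40 and 9.09 in WT arrays, and 7.27 and 6.99 in KO arrays in serum, against 8.14 and 7.93. KO minus WT was -1.08, -0.91, -1.03 and -1.05 in 2i, serum, noLIF and MEKi (SE 0.13 each, adjusted p between 3.81e-05 and 0.00074), and the noLIF and MEKi calls were lost when the mean of the gene's probe sets was taken. AGP14 was above KO by 0.83 in serum and 1.29 in noLIF (adjusted p = 0.000433 and 2.6e-06). In 2i, across the array sets, AGP14 arrays read 8.29 and 8.39. There AGP14 minus KO was 0.17 and was not called, while AGP14 minus WT was -0.91 and was called lower. Grb10 itself, an adaptor that restrains growth, was not called between genotypes in any medium. WT arrays 1 and 2 lay apart on Grb10, at 10.70 and 9.65 in 2i, and their spread enters its SE.

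In the Peg10-Sgce cluster 3 of 5 members were higher in KO than in WT arrays in 2i (Sgce, Ppp1r9a and Casd1) and 3 of 5 with MEKi (Sgce, Ppp1r9a and Peg10). Sgce (epsilon-sarcoglycan, paternally expressed) read 8.99 and 8.87 in KO arrays in 2i, against 6.38 and 6.16 in WT arrays. With MEKi it read 7.74 and 8.15 in KO arrays and 5.50 and 5.76 in WT arrays. The rises were 2.66 and 2.31 (SE 0.20 each, adjusted p = 1.28e-07 and 2.14e-06). In serum, with 7.50 and 7.82 in KO arrays and 7.12 and 7.43 in WT arrays, the difference of 0.38 did not pass. The change of the KO minus WT difference, serum against 2i, was -2.28 (SE 0.28, adjusted p = 0.000249) and held in every alternative run, although serum and 2i arrays lie in different array sets. Peg10, a retrotransposon-derived gene of the placenta, rose by 1.81 with MEKi (adjusted p = 0.0319). It read 4.61 and 5.28 in KO arrays and 3.52 and 2.76 in WT arrays, near the dim end, and its call was lost without any 1 of the 4 arrays. The maternally expressed neighbour Ppp1r9a (neurabin) rose by 0.73 in 2i and 0.72 with MEKi (adjusted p = 0.00357 and 0.00687). These calls were lost without WT 2i array 1, and without array 1 of KO or WT with MEKi or with the mean of probe sets. Casd1, a sialic acid acetyltransferase of the same cluster, rose by 0.69 in 2i (SE 0.12, adjusted p = 0.000849), a call lost with the mean of probe sets. Peg10 in 2i (1.09) and Casd1 with MEKi (0.37) did not pass (adjusted p = 0.168 and 0.0935), nor did Asb4, a maternally expressed member (-0.27 in 2i and 0.25 with MEKi, adjusted p = 0.83 and 0.9).

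In the Dlk1-Meg3 cluster 2 maternally expressed noncoding RNAs rose in KO arrays in 2i. Mirg, a host of microRNAs, read 8.45 and 8.65 in KO arrays and 6.84 and 7.24 in WT arrays, a rise of 1.51 (SE 0.25, adjusted p = 0.000849). Meg3 read 11.99 and 12.25 in KO arrays and 11.27 and 11.46 in WT arrays, a rise of 0.75 (SE 0.14, adjusted p = 0.00177). Atp10a, a phospholipid transporter gene of the Snrpn cluster, fell to 4.74 and 4.94 in KO arrays, against 6.15 and 5.6 in WT arrays (difference -1.03, adjusted p = 0.00142). Igf2r, the receptor that clears IGF2, differed by -0.54 (adjusted p = 0.0355), a call lost without array 1 of either group. Commd1, the host gene of Zrsr1, fell by 0.61 in KO arrays in serum (adjusted p = 0.0297), a call lost without either KO array or WT array 1. Usp29, a peptidase gene of the Peg3 cluster, differed by -1.92 in noLIF (adjusted p = 0.0338), at values of 1.71 to 3.70 that are dim on all 4 arrays, and the call was lost without any 1 of them.

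KO minus WT in 2i had 5 members higher and 4 lower, or 20.9% of members, where 3.63% of all genes rose and 5.52% fell (9.15% in all). In serum 0 rose and 3 fell (6.98% of members), where 1.39% of all genes rose and 2.79% fell (4.17% in all). In noLIF 0 rose and 3 fell (6.98%), where 1.75% of all genes rose and 2.44% fell (4.19% in all). With MEKi 3 rose and 2 fell (11.6%), where 1.86% of all genes rose and 2.22% fell (4.08% in all). The genes named above are all of those calls. Of 10 stem cell markers, 2 fell in KO arrays in serum (median -0.62), 3 fell in noLIF (-0.49), 1 rose with MEKi (-0.10) and 0 passed in 2i (-0.02). Of 8 epiblast markers, 1 rose in 2i and 1 in noLIF. The part of these markers in the member calls was not tested. The feeder list differed little between these groups in 2i, with 0 of 27 genes higher, 1 lower and a median difference of -0.06, and in noLIF it was higher in KO arrays by a median of 0.48 (3 of 27 rose). In the enzymes of DNA methylation, Dnmt3l rose by 3.07 and Dnmt3b by 1.97 in KO arrays in 2i (adjusted p = 1.86e-09 and 5.71e-05), and Dnmt1, the maintenance methyltransferase, fell by 0.31 (adjusted p = 0.0177).

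**Figure D2:**
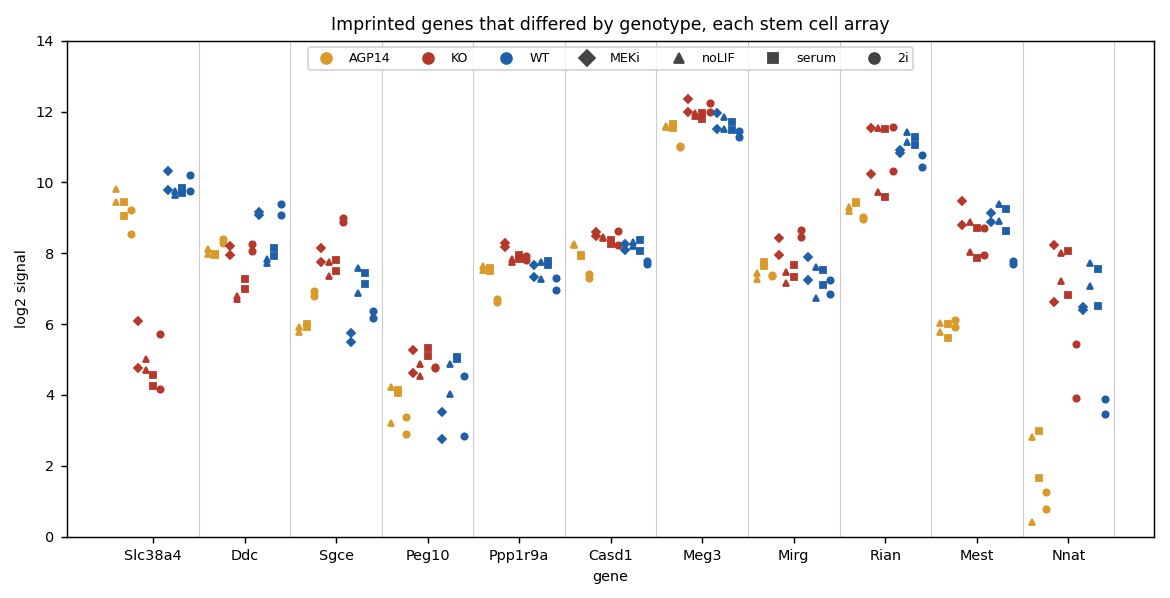
Points are the log2 signal (vertical axis) of single stem cell arrays for 11 imprinted genes, with AGP14 left, KO in the middle and WT right within each gene, and the symbol giving the medium. KO arrays lie at 4.17 to 6.09 for Slc38a4, and AGP14 arrays lie at 5.61 to 6.11 for Mest and 0.42 to 2.98 for Nnat, each apart from the other genotypes.

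AGP14 arrays had low Mest and Nnat in all 3 media. Mest, a paternally expressed hydrolase family gene, read 6.11 and 5.93 in AGP14 arrays in 2i, 5.61 and 6.01 in serum and 6.04 and 5.78 in noLIF. KO arrays read 8.70 and 7.96, 8.72 and 7.87, and 8.87 and 8.03 in those media, and WT arrays 7.70 and 7.77, 8.63 and 9.25, and 8.92 and 9.40. AGP14 arrays lay below every KO and WT array. AGP14 minus WT was -1.72, -3.13 and -3.25, and AGP14 minus KO -2.31, -2.48 and -2.54 (SE 0.31 each, adjusted p between 7.57e-06 and 0.000545), and all of these calls held in every alternative run. The second gene of the cluster, maternally expressed Copg2 (a coatomer subunit), differed from WT by -0.47 in 2i (adjusted p = 0.00107) and was not called from either genotype in serum or noLIF.

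Nnat, paternally expressed, read 0.79 and 1.27 in AGP14 arrays in 2i, 2.98 and 1.65 in serum and 2.82 and 0.42 in noLIF. KO arrays read 5.44 and 3.92, 8.05 and 6.83, and 8.0 and 7.21, and WT arrays 3.46 and 3.89, 6.52 and 7.56, and 7.07 and 7.73. The AGP14 values are among the dimmest of the table, where differences on the log scale are imprecise. AGP14 minus WT was -2.64, -4.72 and -5.78 (SE 0.69 each, adjusted p = 0.00834, 0.000797 and 6.17e-05), and the 2i call was lost without AGP14 array 1 or WT array 2. AGP14 minus KO was -3.65, -5.12 and -5.98 (adjusted p = 0.00071, 0.000103 and 9.38e-06). Blcap, within which Nnat lies and which is maternally expressed in brain, moved the other way against KO, by 0.26, 0.32 and 0.31 (SE 0.09 each, adjusted p = 0.0408, 0.024 and 0.0236), and was not called against WT.

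The maternally expressed Rian, a host of small nucleolar RNAs, was also low in AGP14 arrays. It read 8.98 and 9.01 in 2i, 9.43 and 9.46 in serum and 9.20 and 9.30 in noLIF, against 10.43 and 10.76, 11.05 and 11.27, and 11.14 and 11.42 in WT arrays. The difference from WT passed in 2i (-1.60, SE 0.54, adjusted p = 0.0373) and noLIF (-2.03, adjusted p = 0.0223), and not in serum (-1.71). Both calls were lost without any 1 array of either group. The SE is shared over all groups. KO arrays 1 and 2 lay far apart on Rian, at 9.58 and 11.52 in serum, and their spread enters this SE. Probe sets of the cluster disagreed on it. The Rian probe set 1427580_a_at differed by -2.53 from WT in serum, and the Meg3 probe set 1436713_s_at differed by -1.77, whereas Rian 1428055_at and 1440001_at differed by 0.22 and -0.20. The positions of these probe sets along the transcripts are not given here.

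Other members of the AGP14 comparisons were spread over the clusters. Sgce fell against WT to 6.01 and 5.93 in AGP14 arrays in serum, against 7.12 and 7.43, and to 5.93 and 5.78 in noLIF, against 6.89 and 7.59 (differences -1.31 and -1.38, adjusted p = 0.00123 and 0.000289). In 2i it was 0.59 above WT (adjusted p = 0.0381), a call lost without any 1 of the 4 arrays, and with the mean of probe sets all 3 calls against WT were lost. Against KO it fell by 2.07, 1.69 and 1.69 in 2i, serum and noLIF. Slc22a18, a transporter family gene of the Kcnq1ot1 cluster, was 0.71, 0.88 and 0.94 above KO in 2i, serum and noLIF (adjusted p = 0.0451, 0.0286 and 0.0164). Ube3a, a ubiquitin ligase, differed from WT by -0.52 in 2i and -0.32 in serum (adjusted p = 0.000293 and 0.0337). The necdin gene Ndn differed by -0.86 in 2i and -0.87 in noLIF (adjusted p = 0.0069 and 0.0159). Commd1 differed from WT by -0.61 in serum and -0.57 in noLIF (adjusted p = 0.0229 and 0.0201), and both calls were lost without either AGP14 array or WT array 1.

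Igf2 in 2i read 7.26 and 7.21 in AGP14 arrays, 10.65 and 10.72 in KO arrays and 11.19 and 11.01 in WT arrays. The difference from WT was -3.86 and that from KO -3.45 (SE 0.17 each, adjusted p = 9.46e-11 and 3.33e-10). The feeder mean in 2i was 7.94 in AGP14 arrays, 8.36 in KO arrays and 8.45 in WT arrays, with 12 of 27 feeder genes lower against WT and a median difference of -0.50. Both comparisons cross the array sets, as do all AGP14 comparisons in 2i. Plagl1 in 2i was also called lower in AGP14 arrays, with differences of -1.39 from WT and -1.05 from KO. It was called higher than in KO arrays in serum (1.59) and noLIF (1.44). In noLIF, within 1 set, Igf2 was 0.73 and Plagl1 1.09 above WT in AGP14 arrays (adjusted p = 0.0109 and 0.0352), where 16 of 27 feeder genes rose and 1 fell, with a median of 0.77. Those Igf2 and Plagl1 calls were lost without either AGP14 array or WT array 1, and the part of feeder RNA in them was not tested.

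By count, AGP14 against WT had 2 members higher and 16 lower in 2i (41.9% of members), where 7.17% of all genes rose and 18.2% fell (25.4% in all). In serum it was 1 and 7 (18.6%), where 2.35% of all genes rose and 4.61% fell (6.96% in all), and in noLIF 2 and 6 (18.6%), where 6.34% rose and 4.33% fell (10.7% in all). Against KO the counts were 4 and 18 in 2i (51.2%), where 8.22% of all genes rose and 16% fell (24.2% in all). In serum they were 5 and 7 (27.9%), where 5.23% rose and 5.28% fell (10.5% in all), and in noLIF 5 and 4 (20.9%), where 8.09% rose and 5.22% fell (13.3% in all). The serum and noLIF comparisons lie within 1 array set. The median AGP14 minus WT difference of the 23 paternally expressed members was -0.44, -0.33 and -0.38 in 2i, serum and noLIF, and that of the 17 maternally expressed members -0.08, -0.08 and 0.06. Over all genes the medians were -0.07, -0.03 and 0. Comparisons against WT and against KO share the AGP14 arrays. Markers of cell state moved beside these counts. Of 10 stem cell markers, 3 rose against WT in serum (median 0.55) and 8 in noLIF (1.11), and against KO 7 rose in serum (1.18) and 8 in noLIF (1.70). In 2i 0 rose and 1 fell against WT (-0.14), and 1 rose and 1 fell against KO (-0.15). Of 8 epiblast markers, 2 fell against WT in serum (median -0.98) and 1 in noLIF (-0.59), and against KO 4 fell in serum (-1.29) and 3 in noLIF (-0.61). In 2i 1 of them rose against WT and 0 passed against KO. Their part in the members' differences was not tested.

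In KO and WT arrays serum against 2i, a comparison across the array sets, moved Igf2 and Plagl1 more than the other members, and feeder genes moved too. Igf2 read 6.49 and 6.68 in KO arrays in serum, against 10.65 and 10.72 in 2i, and 5.81 and 6.24 in WT arrays in serum, against 11.19 and 11.01 in 2i. The differences were -4.10 and -5.07 (SE 0.17 each, adjusted p = 8.41e-12 and 5.22e-13). Plagl1 read 7.0 and 7.21 in KO arrays in serum, against 11.82 and 11.61 in 2i, and 7.39 and 8.66 in WT arrays in serum, against 11.71 and 12.39 (differences -4.61 and -4.03, adjusted p = 3.27e-09 and 1.98e-08). In AGP14 arrays, where serum and 2i lie in 1 array set, the differences were -0.62 for Igf2 and -1.96 for Plagl1 (adjusted p = 0.016 and 0.000232), and the Igf2 call was lost without any 1 of the 4 arrays. With MEKi Igf2 read 8.12 and 8.62 in KO arrays and 8.33 and 8.50 in WT arrays, between its levels in serum and 2i, and Plagl1 read 10.76 and 11.16 in KO arrays and 11.41 and 12.07 in WT arrays.

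The feeder list fell in the same comparisons. Of 27 genes, 20 were lower and 3 higher in serum against 2i in KO arrays (median -2.15) and likewise in WT arrays (median -2.12), and 18 were lower and 4 higher in AGP14 arrays (median -1.33). Within 1 array set, MEKi against 2i had 18 lower and 3 higher in KO arrays (median -1.46) and 18 lower and 5 higher in WT arrays (median -1.32). Col1a1, a collagen gene of fibroblasts, read 4.48 and 4.41 in KO arrays in serum, against 9.79 and 9.96 in 2i, and 4.20 and 4.30 in WT arrays in serum, against 9.81 and 9.58 in 2i. In these bulk samples fewer feeder cells and less RNA per cell cannot be told apart, and the part of feeder RNA in the Igf2 and Plagl1 values was not tested.

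**Figure D3:**
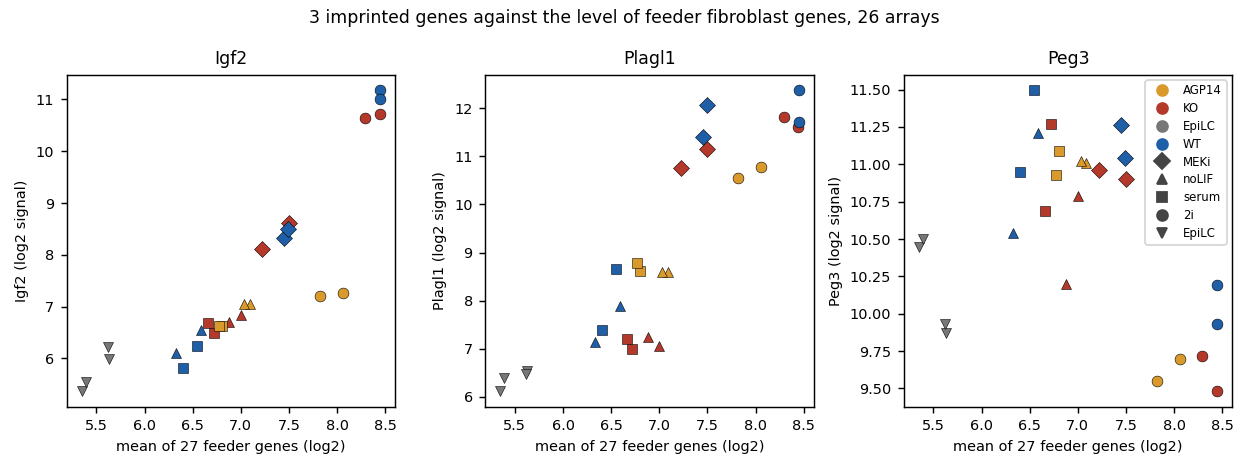
Each point is 1 of 26 arrays, with the mean log2 signal of 27 feeder fibroblast genes on the horizontal axis and the log2 signal of Igf2, Plagl1 or Peg3 on the vertical axis, coloured by genotype and with the symbol giving the medium or EpiLC. Igf2 is highest in the 2i arrays of KO and WT, where the feeder mean is highest, and AGP14 arrays in 2i have Igf2 at 7.26 and 7.21 with a feeder mean of 7.94. Peg3 is lower in 2i than in serum arrays in AGP14, KO and WT.

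Peg3, a paternally expressed zinc finger gene, went the other way from the feeder genes. In AGP14 arrays it read 11.09 and 10.93 in serum, against 9.70 and 9.55 in 2i, in KO arrays 11.27 and 10.69, against 9.72 and 9.48, and in WT arrays 10.95 and 11.50, against 9.93 and 10.19. The rises were 1.38, 1.38 and 1.16 (SE 0.22 each, adjusted p = 0.000197, 5.97e-05 and 0.000353), and MEKi against 2i gave 1.33 in KO and 1.09 in WT arrays (adjusted p = 0.000403 and 0.00252), within 1 array set. Nnat rose by 2.76 in KO and 3.37 in WT arrays in serum against 2i (adjusted p = 0.00368 and 0.000762), and by 2.75 and 2.76 with MEKi against 2i (adjusted p = 0.011 and 0.0116). Ascl2, a placental transcription factor, rose in serum by 0.75, 0.89 and 1.38 in AGP14, KO and WT arrays (adjusted p = 0.0389, 0.00702 and 0.000181). Atp10a rose by 1.83, 1.92 and 0.88, with AGP14 arrays at 6.03 and 6.05, against 4.16 and 4.26, KO arrays at 6.68 and 6.85, against 4.74 and 4.94, and WT arrays at 6.86 and 6.64, against 6.15 and 5.6. Igf2r fell in serum in all 3 genotypes, with differences of -0.59, -0.56 and -1.06 (adjusted p = 0.0118, 0.00818 and 2.77e-05), and Copg2 with -0.29, -0.65 and -0.66 (adjusted p = 0.0366, 1.46e-05 and 1.51e-05).

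Sgce moved in opposite directions by genotype. Serum minus 2i was -0.89 in AGP14 arrays, -1.27 in KO arrays and 1.01 in WT arrays (adjusted p = 0.00395, 5.74e-05 and 0.000623), and in AGP14 arrays the mean of probe sets gave 0.00. Ddc differed by -1.04 in KO and -1.21 in WT arrays in serum against 2i (adjusted p = 4.84e-06 and 9.47e-07), and was higher with MEKi than in serum by 0.94 and 1.09 (adjusted p = 4e-05 and 9.03e-06). Kcnq1ot1, the paternally expressed noncoding RNA that silences its cluster, was higher with MEKi than in serum by 0.61 in KO and 0.64 in WT arrays (adjusted p = 0.0092 and 0.006). Cdkn1c, the cell cycle inhibitor p57 of that cluster, read 8.31 and 7.57 in AGP14 arrays in serum, against 6.47 and 6.51 in 2i (rise 1.45, adjusted p = 0.0163), a call lost without either 2i array or serum array 1.

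Serum against 2i had 9 members higher and 6 lower in AGP14 arrays (34.9% of members), where 9.97% of all genes rose and 8.22% fell (18.2% in all). In KO arrays 9 rose and 11 fell (46.5%), where 15.8% and 20% of all genes did (35.8% in all), and in WT arrays 11 rose and 6 fell (39.5%), where 15.2% and 19.4% did (34.6% in all), both across the array sets. MEKi against serum, also across sets, had 6 higher and 1 lower in KO arrays (16.3%), where 15% and 9.56% of all genes were (24.5% in all), and 4 and 6 in WT arrays (23.3%), where 14.3% and 11.2% were (25.4% in all). MEKi against 2i, within a set, had 4 and 3 in KO arrays (16.3%), where 6.61% and 6.6% of all genes were higher and lower (13.2% in all), and 5 and 5 in WT arrays (23.3%), where 5.45% and 7.06% were (12.5% in all). With the replicate number as a block within genotype, MEKi against serum in WT arrays had 37.2% of members and 33.9% of all genes called, so the order of the 2 shares turned.

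Removing LIF from serum moved no member past the limit in limma. In KO arrays 0 of 43 were called (4 at an unadjusted p under 0.05), where 0.269% of all genes rose and 0.83% fell (1.1% in all). In WT arrays 0 were called (2 at an unadjusted p under 0.05), where 0.33% rose and 1.17% fell (1.5% in all). With the replicate number as a block, 5 members passed in WT arrays, where 6.43% of all genes did. They were Impact (-0.53), Mcts2 (-0.21), Ndn (0.31), Plagl1 (-0.52) and Zdbf2 (-0.73). The same block moved the count in WT arrays to 16 for MEKi against serum (33.9% of all genes called) and to 16 for MEKi against 2i (21.3% of all genes).

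Epiblast-like cells differed from WT cells in 2i at 19 members, 9 higher and 10 lower (44.2% of members), where 17.2% of all genes were higher and 21.1% lower (38.3% in all). Plagl1 read 6.11 and 6.39 in EpiLC at day 2, against 11.71 and 12.39 in WT arrays in 2i, and Igf2 read 5.36 and 5.54, against 11.19 and 11.01. The differences were -5.80 (SE 0.32) and -5.65 (SE 0.17), with adjusted p = 7.29e-11 and 2.92e-14. Of the feeder list, 22 of 27 genes fell and 3 rose, by a median of -3.31, and Col1a1 read 2.44 and 3.04 in EpiLC arrays, against 9.81 and 9.58 in WT arrays. The feeder list's part in these falls was not tested. Mest read 10.50 and 10.52 in EpiLC at day 2, against 7.70 and 7.77 in WT arrays (rise 2.77, adjusted p = 8.15e-07), and Nnat 7.41 and 7.39, against 3.46 and 3.89 (rise 3.73, adjusted p = 0.000226). Inpp5f, an inositol phosphatase gene with a paternally expressed transcript, read 7.56 and 7.66, against 5.78 and 5.08 (rise 2.18, adjusted p = 2.33e-05). Impact, a regulator of the kinase GCN2, read 8.68 and 8.77, against 10.20 and 10.78 (difference -1.77, adjusted p = 0.000747), and Igf2r 8.17 and 8.21, against 10.07 and 9.63 (difference -1.66, adjusted p = 8.65e-08). Zdbf2, a paternally expressed zinc finger gene, differed by -1.51 (adjusted p = 0.0075), a call lost without WT array 2.

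At day 3 of EpiLC, 3 paternally expressed genes of the Snrpn cluster were lower than at day 2. Mkrn3, a ring finger gene, read 4.76 and 3.97 at day 3, against 6.22 and 6.07 at day 2 (difference -1.78, adjusted p = 0.000162). Peg12, a FRAT family gene, read 3.17 and 2.41 at day 3, against 4.42 and 4.40 (difference -1.62, adjusted p = 0.0302), and Ndn 7.64 and 7.45, against 8.39 and 8.31 (difference -0.81, adjusted p = 0.0137). The other measured members of the cluster differed by -0.59 (Snrpn), 0.21 (Magel2), -0.05 (Atp10a) and -0.03 (Ube3a). The other 9 calls were 6 higher, with Sgce at 1.21 and Impact at 1.12 leading, and 3 lower, among them Ddc at -1.12 and Mirg at -0.98. In all 12 of 43 members (27.9%) were called, 6 in each direction, where 7.89% of all genes were higher and 9.69% lower (17.6% in all). Within the EpiLC groups the 2 arrays of a group differed by a median of 0.13 over members.

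In KO and in WT arrays, but not in AGP14 arrays, members were called between arrays 1 and 2 over all media. Within a medium, the median gap between the 2 arrays was 0.24 to 0.35 over members in KO groups, against 0.19 to 0.21 over all genes, and 0.32 to 0.34 in WT groups, against 0.21 to 0.23. In AGP14 groups it was 0.12 over members and 0.14 to 0.15 over all genes. Same-numbered arrays of a genotype deviated together over the genome, with correlations of 0.099 to 0.201 in KO and 0.106 to 0.216 in WT arrays, 0.014 to 0.071 in AGP14 arrays, and -0.061 to 0.047 between genotypes. Media other than 2i lasted 2 days, so same-numbered arrays may share cells, and a p-value below tests a difference between arrays 1 and 2 that recurs over the media and not a condition.

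Mcts2 had the smallest adjusted p of any member in KO arrays. It is an intronic retrogene of H13, paternally expressed, and H13 encodes a signal peptide peptidase whose full-length transcript is known to come from the maternal copy. In KO arrays Mcts2 read 9.87 in array 1 and 9.0 in array 2 in 2i, 10.31 and 9.44 in serum, 10.34 and 9.40 in noLIF and 10.05 and 9.06 in MEKi. In the same arrays H13 read 8.26 and 9.56, 7.84 and 9.25, 7.51 and 9.32, and 7.77 and 9.40. Mcts2 was therefore the higher in array 1 in all 4 media, and H13 the lower. In WT arrays the order was reversed: Mcts2 read 9.05 and 9.65, 9.61 and 10.25, 9.35 and 10.08, and 9.09 and 9.72, and H13 8.82 and 8.48, 9.0 and 7.93, 9.12 and 7.61, and 8.71 and 7.91. AGP14 arrays had Mcts2 at 9.34 to 9.69 and H13 at 8.47 to 8.66.

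Array 1 minus array 2, averaged over the media, was 0.92 for Mcts2 (SE 0.04, adjusted p = 6.64e-10) and -1.54 for H13 (SE 0.13, adjusted p = 4e-07) in KO arrays. In WT arrays it was -0.65 for Mcts2 (SE 0.04, adjusted p = 7.37e-08) and 0.93 for H13 (SE 0.13, adjusted p = 6.02e-05). Mcts1, the X-linked parent gene of Mcts2 whose RNA the probe set might also bind, differed by 0.02 in KO arrays and by -0.11 in WT arrays (adjusted p = 0.788 and 0.0467). The 5 other H13 probe sets disagreed: in KO arrays 2 were lower and 3 higher in array 1, and in WT arrays 2 were higher and 3 lower. The brightest of them, 1455631_at, differed by 0.46 in KO and -0.48 in WT arrays, opposite to the main H13 probe set and in the direction of Mcts2. With the mean of all H13 probe sets the H13 calls were lost. The Mcts2 calls held in every alternative run.

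**Figure D4:**
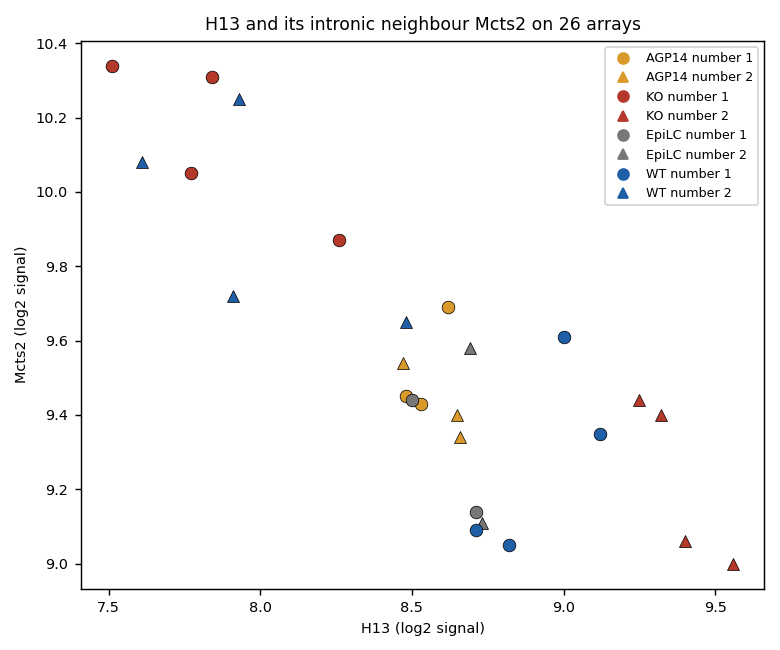
Each point is 1 of 26 arrays, with the log2 signal of H13 on the horizontal axis and of Mcts2 on the vertical axis, coloured by genotype and with the symbol giving the replicate number. KO array 1 and WT array 2 points lie at H13 values of 7.51 to 8.48, KO array 2 and WT array 1 points at 8.71 to 9.56, and AGP14 and EpiLC points at 8.47 to 8.73.

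Within KO arrays 8 members were higher and 5 lower in array 1 (30.2% of members), where 3.49% of all genes were higher and 5.65% lower (9.14% in all). The 8 higher ones were all paternally expressed: Mcts2, Nnat (1.29), Peg12 (1.22), Zdbf2 (0.79), Mest (0.77), Inpp5f (0.62), Impact (0.52) and Peg3 (0.37). Of the 5 lower ones 4 were maternally expressed: H13, Rian (-1.58), Mirg (-0.33) and Meg3 (-0.22). The paternally expressed Slc38a4 was also lower (-0.72, in 3 of 4 media), a call lost without its 2i or its MEKi arrays. The other 12 differences had the same sign in all 4 media. Rian read 10.32, 9.58, 9.72 and 10.23 in KO array 1 in 2i, serum, noLIF and MEKi, against 11.57, 11.52, 11.53 and 11.53 in array 2 (adjusted p = 3.33e-09). As in AGP14 arrays, the low values stood on Rian 1427580_a_at (-2.58) and Meg3 1436713_s_at (-1.94) and not on Rian 1428055_at (0.24) or 1440001_at (-0.07).

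Within WT arrays 8 members were higher and 9 lower in array 1 (39.5% of members), where 10.6% of all genes were higher and 6.13% lower (16.8% in all). Of the 23 paternally expressed members 6 were lower: Zdbf2 (-0.90), Impact (-0.89), Plagl1 (-0.84), Mcts2, Mest (-0.35) and Kcnq1ot1 (-0.27), and Ndn was higher (0.60). Of the 17 maternally expressed ones 6 were higher: Grb10 (1.21), Cdkn1c (1.05), H13, Phlda2 (0.66), Commd1 (0.40) and Igf2r (0.34). Mirg (-0.58), Ppp1r9a (-0.33) and Meg3 (-0.30) were the maternally expressed members that were lower, and Gnas, with several transcripts, was higher (0.23). Grb10 read 10.70, 11.48, 11.39 and 10.96 in WT array 1 in 2i, serum, noLIF and MEKi, against 9.65, 10.09, 10.10 and 9.86 in array 2 (SE 0.08, adjusted p = 5.03e-08). Every array 1 value was above every array 2 value. In KO and AGP14 arrays Grb10 was not called between numbers. Impact read 10.20, 10.15, 9.47 and 10.17 in WT array 1, against 10.78, 11.17, 10.80 and 10.82 in array 2 (adjusted p = 5.94e-06).

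Both lists shared 7 members, 41.2% of the 17 called in WT arrays and 53.8% of the 13 called in KO arrays. In 5 of the 7 the sign was opposite (H13, Impact, Mcts2, Mest and Zdbf2), and Meg3 and Mirg were lower in array 1 of both genotypes. Over all genes 574 were called in both, 18.8% of 3052 in WT and 34.5% of 1662 in KO arrays, of which 328 had opposite signs. A number carries no meaning across genotypes, so an opposite sign says only that the pair differs in both. Within AGP14 arrays 0 members were called in limma between numbers (5 at an unadjusted p under 0.05), where 0.0989% of all genes were higher and 0.0934% lower (0.192% in all). The feeder list had 0 of 27 genes higher and 1 lower in array 1 of KO (median -0.04), and 3 higher and 3 lower in WT (median -0.19). Of 10 stem cell markers, 1 was higher and 1 lower in array 1 of KO (median -0.09), and 1 higher and 5 lower in WT (median -0.23). Of 8 epiblast markers, 3 were higher in array 1 of KO (median 0.11) and 3 in WT (median 0.51), and 0 were lower in KO or WT. The part of these lists in the members' differences was not tested.

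**Figure D5:**
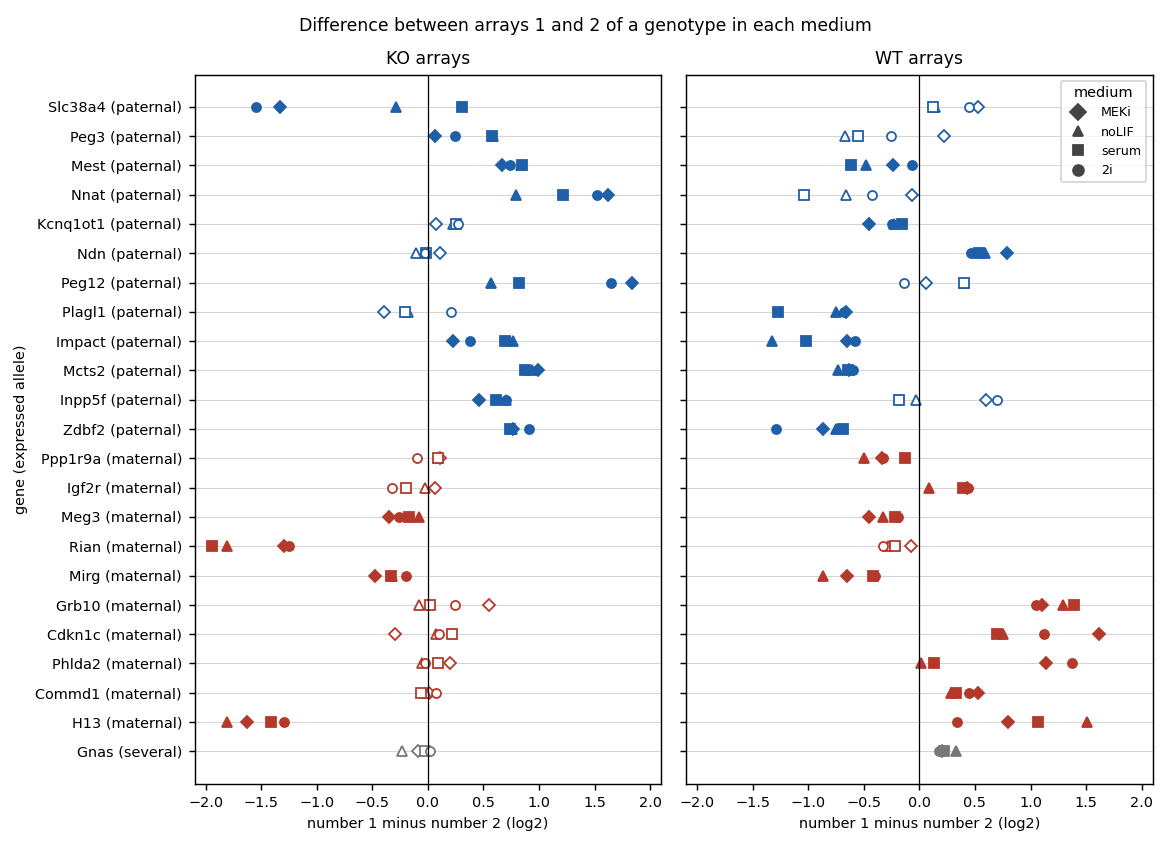
Each point is the log2 signal of array 1 minus that of array 2 in 1 medium (symbol), with KO arrays in the left panel and WT arrays in the right panel, for the 23 imprinted genes called in either; filled symbols mark genes called in that genotype and colours the expressed allele. Mcts2 lies at 0.87 to 0.99 in KO arrays and at -0.73 to -0.60 in WT arrays, and H13 at -1.81 to -1.30 and at 0.34 to 1.51.

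Of 23 genes that maintain or set imprints, 3 rose and 2 fell in array 1 of KO arrays, and 3 rose and 3 fell in array 1 of WT arrays. Over all genes 9.14% were called between the numbers in KO arrays and 16.8% in WT arrays. Dppa3 (Stella), which protects the maternal genome from demethylation in the egg and zygote, read 6.92 and 8.30 in KO arrays 1 and 2 in 2i, 9.12 and 10.12 in serum, 8.33 and 9.68 in noLIF and 9.45 and 10.16 in MEKi. In WT arrays it read 10.74 and 7.86, 10.74 and 9.85, 10.09 and 9.36, and 10.89 and 8.90. The differences were -1.11 in KO arrays (SE 0.23, adjusted p = 0.00426) and 1.62 in WT arrays (SE 0.23, adjusted p = 8.19e-05). Signs were opposite in KO and WT arrays for 328 of the 574 genes called in both, and a tie of Dppa3 to Mcts2 was not tested. The de novo methyltransferases Dnmt3a and Dnmt3b rose by 0.82 and 0.51 in WT array 1 (adjusted p = 0.00192 and 0.00481), where Tet2 fell by 0.65 (adjusted p = 4.78e-05). In KO array 1 Ehmt2, a histone H3 methyltransferase, rose by 0.33 (adjusted p = 0.000394) and Uhrf1, the partner of DNMT1, by 0.20 (adjusted p = 0.00546).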

How the data were processed

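For 45100 probe sets, log2 values were taken as deposited by the authors. Their background correction and normalization are not stated in the labels, and base 2 was inferred from the highest value. Array medians of 4.86 to 5.01 show that the arrays share a scale. By the platform annotation 34944 carry 1 gene symbol and 932 several, while 9160 are not listed and 64 are controls. For each of 18193 genes the brightest probe set naming that gene alone was used.

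The members and lists were chosen with earlier results of these data known. Every member may be named, and of the lists of further imprinted genes and imprint maintenance genes only those called, at most 5 a list and comparison. Mcts1 was looked up after the Mcts2 values were seen.

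A single limma model (3.58.1, R 4.3.3) had 1 coefficient per group, 13 residual degrees of freedom and an intensity trend. Tests were two-sided. Differences between replicate numbers came from the same model with a number column for each genotype (9 residual degrees of freedom). The procedure was tested on simulated data. Same-numbered arrays were checked for shared deviations: all 6 WT correlations lay above 0.1, whereas the lowest in KO was 0.099. The ranges were alike, at 0.099 to 0.201 in KO and 0.106 to 0.216 in WT, so a cut at 0.1 does not set KO apart from WT. The main comparisons of genotype and medium did not pair the numbers in any genotype, and the replicate block was run as an alternative. Serum against 2i in AGP14 and MEKi against 2i were added after seeing the data. Python 3.11.15 was used with matplotlib 3.10.9, scipy 1.17.1, numpy 2.4.6 and pandas 2.3.3. Alternatives were the replicate block, leaving out arrays, leaving out dim genes, dropping the intensity trend, averaging probe sets and quantile normalization. The number of arrays limits the precision.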

Additional observations from a re-analysis of the deposited data

Results flagged for a closer look

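The KO minus WT difference changed between serum and 2i for 3 members, by a test of the change itself in limma. Serum and 2i arrays of KO and WT lie in different array sets, so medium and array set cannot be told apart. For Sgce the difference was 0.38 in serum and 2.66 in 2i, a change of -2.28 (adjusted p = 0.000249). For Atp10a it was 0.01 in serum and -1.04 in 2i, a change of 1.05 (adjusted p = 0.0362). For Igf2 it was 0.56 in serum and -0.41 in 2i, a change of 0.97 (adjusted p = 0.0352), and Igf2 moved with the feeder list between these media. These are 3 of 43 members (6.98%), where 2.97% of all genes were called. The Sgce change held in every alternative run, whereas the Atp10a and Igf2 calls were lost without either KO serum array, KO 2i array 1 or WT 2i array 1, and when probe sets were averaged. The Atp10a call was also lost without WT serum array 2, and the Igf2 call without KO 2i array 2 or WT serum array 1.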

How the results depend on the processing

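Of 247 called pairs of a member and a comparison, 101 held in every alternative, 142 were lost in 1 or more and 7 reversed, all with the mean of a gene's probe sets: Casd1 for AGP14 against WT (0.30) and against KO (0.13) in 2i, Gnas for AGP14 against WT (0.66) and against KO (0.36) in 2i, for serum against 2i in WT (0.18) and for EpiLC day 2 against WT in 2i (0.16), and Sgce for serum against 2i in AGP14 (0.00). That mean also moved the count of called members to 3 for KO against WT with MEKi, 1 without LIF, 4 and 5 for AGP14 against WT in serum and without LIF, and 4 for MEKi against 2i in KO. Without the intensity trend the counts were 4 for AGP14 against WT in serum, 1 for the change of the KO minus WT difference and 8 between numbers within KO, and without dim genes that change had 5. With the replicate number as a block shared by all groups KO against WT in serum had 5. With a replicate block within genotype the counts were 18 in KO and 16 in WT for MEKi against serum, 1 in KO and 5 in WT for no LIF against serum, 15 in KO and 16 in WT for MEKi against 2i, 25 for serum against 2i in AGP14 and 12 for the change of the KO minus WT difference. That block gave 41.9% of members for MEKi against serum in KO, where 32.6% of all genes were called. The block changed no other count by over 1.5 times. Calls over all genes were also more numerous in some alternative runs. For serum against 2i in AGP14, the main run called 3309 of all genes and an alternative run up to 4813. For the change of the KO minus WT difference the numbers were 541 and 1708. For MEKi against 2i in KO they were 2403 and 3942, and for no LIF against serum in KO 200 and 816. The highest number may come from a run other than the block. The cause of these changes was not tested.

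Leaving out 1 array at a time gave counts of 7 to 15 for KO against WT in 2i, 2 to 4 in serum, 2 to 2 without LIF and 3 to 6 with MEKi. For AGP14 against WT they were 9 to 13 in 2i, 3 to 9 in serum and 3 to 7 without LIF, and against KO 13 to 16, 7 to 9 and 6 to 9. Serum against 2i gave 6 to 11 in AGP14, 11 to 16 in KO and 14 to 17 in WT. MEKi against serum gave 5 to 8 in KO and 5 to 11 in WT, and MEKi against 2i 4 to 7 in KO and 5 to 8 in WT. No LIF against serum gave 0 throughout. EpiLC day 2 against WT gave 15 to 19, day 3 against day 2 gave 4 to 9, and the change of the KO minus WT difference 1 to 5. Between numbers the counts were 0 to 1 within AGP14, 9 to 13 within KO and 16 to 17 within WT. Calls over all genes changed between the runs as well, so a change of a member count is not particular to the members. A group left with 1 array was assumed to vary like the others. Low signals limit the dim members, such as Nnat in AGP14 arrays.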

Other observations

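Of 35 further imprinted genes, 1 rose and 1 fell in array 1 of KO arrays (5.71% of the list, where 9.14% of all genes were called), and 3 rose and 3 fell in array 1 of WT arrays (17.1%, where 16.8% of all genes were). In KO arrays Sfmbt2, a polycomb family gene, rose by 0.50 (adjusted p = 0.0136) and Dhcr7, an enzyme of cholesterol synthesis, fell by 0.28 (adjusted p = 0.00595). In WT arrays Gatm, an enzyme of creatine synthesis, rose by 0.89 (adjusted p = 0.005) and Cobl, an actin nucleator of the Grb10 region, fell by 0.84 (adjusted p = 0.000174).

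Zfp57, the reader of methylated TGCCGC, read 7.01 and 6.73 in AGP14 arrays in 2i, 7.85 and 8.02 in KO arrays and 7.52 and 7.50 in WT arrays. AGP14 minus WT was -0.64 (adjusted p = 0.00201) and AGP14 minus KO -1.06 (adjusted p = 1.8e-05) in 2i, across the array sets. In noLIF, within 1 set, AGP14 arrays read 6.40 and 6.46, KO arrays 5.56 and 5.50 and WT arrays 5.93 and 5.94, so that AGP14 lay 0.50 above WT and 0.90 above KO (adjusted p = 0.0265 and 0.000175). In serum against 2i in WT arrays, Zfp57 fell by 1.35 (adjusted p = 3.96e-07), also across the sets. Its mean in KO arrays was 6.15 in serum and 7.94 in 2i, across the sets as well. In AGP14 arrays, where serum and 2i lie in 1 set, it was 6.82 in serum and 6.87 in 2i.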
